A study of Mus musculus with 12 samples.

Results

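The effect of inorganic arsenic (iAs) on the RNA of TC2Ras tumors was measured over both levels of the other factor of the study, the presence of adipose-derived stromal cells (ASC) in the implant. All 12 tumors entered 1 model, and for each gene the mean of the 6 tumors from iAs-exposed mice was set against the mean of the 6 tumors from unexposed mice, with ASC kept as a factor. The members are the 20818 genes, of 55401 in the deposited table, that passed the filter on low counts. The filter asks for enough counts in as many tumors as 1 group holds, so a gene high in 1 group alone can pass. The iAs difference is given as an average over both ASC levels, and for a part of the genes also within each level. An average given alone does not show that both levels differed.

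TC2Ras is a mouse prostate cancer cell line driven by constitutive Ras signaling, and ASC-GFP are primary stromal cells from the fat of male GFP-transgenic C57BL/6 mice 8 to 12 weeks old. All mice received low-arsenic AIN-76A chow and Milli-Q water for 2 weeks, then 125000 cells under the skin of both flanks, and their tumors were collected 21 days later. Control tumors grew from TC2Ras cells alone in hosts whose drinking water held 0 ppb iAs, and ASC tumors grew from TC2Ras cells mixed with 1% ASC-GFP in hosts on the same water. As300 tumors grew from TC2Ras cells alone in mice that drank 300 ppb iAs from implantation onward, and ASC_As300 tumors from the mixture in mice that drank 300 ppb iAs. Each group has 3 tumors, and each library is 1 mouse, since tumor tissue of the left and right flank was combined. The strain, sex and age of the host mice are not given in the sources used here, and all tumors came from 1 cancer cell line.

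Trivalent inorganic arsenic binds thiol groups of proteins and causes oxidative stress. In many cultured cells it turns on metallothioneins through the metal sensor Mtf1, antioxidant enzymes through NRF2, heat shock proteins through Hsf1, and immediate early genes of the AP-1 family through stress kinases. It is methylated by As3mt and conjugated to glutathione before export, and it is known to hinder the making of fat cells and to alter glycolysis.

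The deposited counts summed to 39157647 to 55168642 per tumor, with 24168 to 25512 genes detected, and the most abundant gene, an rRNA gene, took 3.23 to 11.4% of the counts. The labels call the samples stromal cells, whereas the methods of the study describe excised tumors. The 17 tested fibroblast and stromal genes summed to 6647 to 11615 CPM (counts scaled to a common total with edgeR's TMM factors) in unexposed and 6196 to 9309.7 CPM in exposed tumors. The 8 tested genes of the tumor epithelium list summed to 67.0 to 400 and 66.7 to 152 CPM. Its keratin Krt8 was at 26.2 to 337 and 24.1 to 113 CPM. Sums over different lists do not give the shares of cell types. Several libraries stood apart in other cell types. Control replicate 1 had 536 CPM of B cell genes against 169.6 to 230.0 in the other 11, ASC replicate 2 had 1634 CPM of adipocyte genes, and skeletal muscle genes reached 2827 CPM in Control replicate 2 and 2757 CPM in As300 replicate 1. Results that rest on them are given with and without them. In bulk tissue, fewer cells of a type and less RNA per cell cannot be told apart. P-values measure the spread between these mice.

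No gene passed the threshold for the iAs difference over both ASC levels (edgeR quasi-likelihood test, Benjamini-Hochberg adjusted p under 0.05 and at least 1.5-fold), in either direction, 0% of 20818. The smallest adjusted p was 0.152, that of the immediate early gene Ier3. At an unadjusted p under 0.05, 1564 genes were higher with iAs (7.51% of those tested) and 1761 were lower (8.46%). At p under 0.001 these were 65 and 34 genes, and the median difference of all genes was -0.019 on the log2 scale, with 47.0% of genes higher. DESeq2 gave different counts. Its Wald test, run without the filter on all genes with any count, called 30 genes higher and 84 lower. Some of these had extreme log2 differences, such as Gm9747 at 24.2 and Gm20716 at -13.6. Limma-voom, on the filtered genes, called 0. The quasi-likelihood test itself called 14 higher and 45 lower when ASC replicate 3 was left out, of which 32 were among the DESeq2 calls (28.1% of those and 54.2% of these). The differences described from here on were therefore not called by the quasi-likelihood test unless it is said that they were, and their sizes are given with standard errors (SE). Counts of list members at an unadjusted p under 0.05 stand beside 7.51% of all genes higher and 8.46% lower. All gene lists were chosen with earlier results of these data known, so these counts are a description.

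More genes passed the threshold without ASC than with ASC. In As300 against Control the same model called 146 genes higher (0.701% of those tested) and 74 lower (0.355%), together 1.06%, whereas in ASC_As300 against ASC it called 0 genes in either direction (smallest adjusted p of 1). A fit of the 6 As300 and Control tumors alone called 57 higher and 12 lower. At an unadjusted p under 0.05 there were 2324 genes higher (11.2%) and 2701 lower (13%) without ASC, and 307 higher (1.47%) and 362 lower (1.74%) with ASC. The test of the difference itself, the interaction of iAs with ASC, called 0 genes by this test (smallest adjusted p of 0.309), with 1473 genes (7.08%) and 1363 genes (6.55%) at an unadjusted p under 0.05 for a more positive and a more negative iAs difference with ASC. DESeq2, run without the filter on low counts, called 23 and 121 genes for the interaction. No gene was shown by the quasi-likelihood test to respond differently at the 2 ASC levels.

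The pairs As300 with Control and ASC_As300 with ASC share no tumor, so a gene ranked in the first can be read in the second. Of the 146 genes called higher without ASC, 63 (43.2%) were also higher with ASC, against 48.6% of all genes, and their median log2 difference was 0.76 without and -0.025 with ASC. Of the 74 called lower without ASC, 48 (64.9%) were also lower with ASC, against 51.4% of all genes, with medians of -0.72 and -0.049. When the 500 genes with the smallest p in 1 pair were ranked in a fit of its own 6 tumors, 56.2% of those ranked without ASC and 65% of those ranked with ASC had the same sign in the other pair, against 52.4% of all genes. These shares depended on the ASC group. The share ranked without ASC was 24.2% without ASC replicate 1, 71.6% without ASC_As300 replicate 1 and 86.4% without ASC replicate 3, and the share ranked with ASC was 46.2%, 55% and 81.2% without ASC replicates 1, 2 and 3. Across all 20818 genes the Pearson correlation of both differences was 0.085, and across the 14804 genes with a mean of at least 1 CPM it was 0.192, as a description, since genes are not independent.

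**Figure D1:**
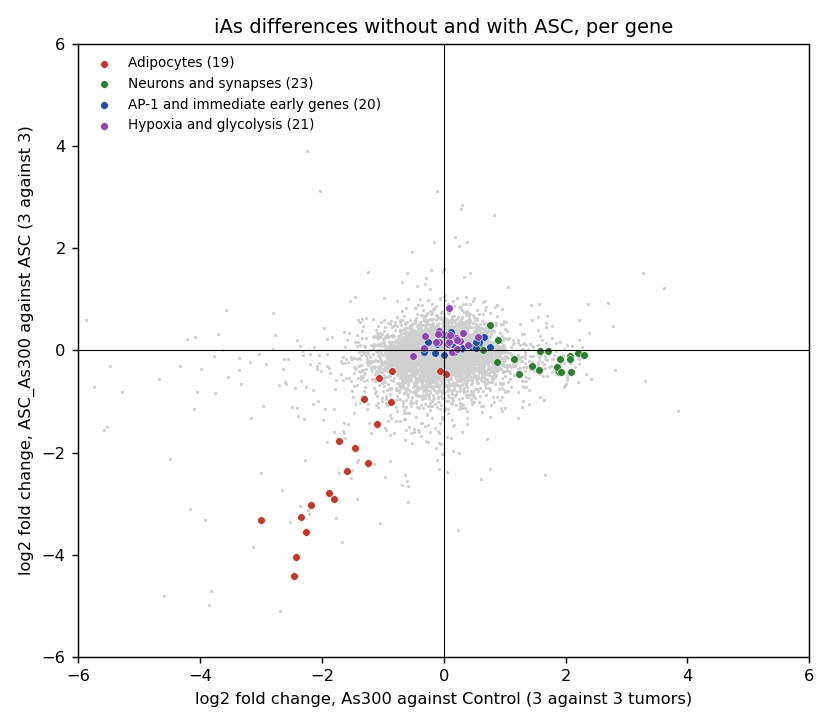
Each point is 1 of 14804 genes with a mean of at least 1 CPM, with the log2 iAs difference without ASC on the x axis and with ASC on the y axis, and members of 4 gene lists in color. Adipocyte genes lie below 0 on both axes apart from 1 that is above 0 without ASC, most neuronal genes lie to the right of 0 on the x axis and about 0 on the y axis, and 12 genes lie outside the axes.

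Immediate early genes of the AP-1 group, which cells switch on within minutes of a stress or growth signal, were higher with iAs in most cases, and the gene with the smallest p belonged to this kind. Ier3, a stress-inducible gene that protects cells from apoptosis, had 60.8, 58 and 64.6 CPM in Control, 75.1, 72 and 77.6 in ASC, 97.5, 107 and 86.4 in As300 and 96.1, 90.9 and 83.6 in ASC_As300. Every exposed tumor was above every unexposed tumor. The difference was 0.47 ± 0.064 (log2, SE; adjusted p = 0.152), 0.67 ± 0.090 without ASC, where it was called (adjusted p = 0.0356), and 0.27 ± 0.090 with ASC. Over all alternatives its adjusted p ran from 3.06e-07 with DESeq2, where it missed the fold threshold, to 0.408. The same complete separation of both arms was seen for 50 genes that were higher (0.24% of those tested) and 43 that were lower (0.207%).

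Junb, a subunit of AP-1, had 73.3, 74.9 and 85.5 CPM in Control, 88.4, 99 and 83.9 in ASC, 110.4, 117 and 119 in As300 and 95, 99.5 and 109 in ASC_As300, and the ASC and ASC_As300 tumors overlapped. Its difference was 0.37 ± 0.063 (0.57 without and 0.16 with ASC). Jund, a second subunit, had 145, 176 and 219.8 CPM (lowest, median, highest of 6) with iAs and 109.5, 125 and 203 CPM without, with ASC replicate 3 at the top of the unexposed tumors, and differed by 0.41 ± 0.11. Ier2 differed by 0.35 ± 0.10, the AP-1 subunit Fosl1 by 0.23 ± 0.084 and the MAP kinase phosphatase Dusp1 by 0.26 ± 0.11. Of the 20 tested AP-1 and immediate early genes, 16 were higher and 4 lower. At an unadjusted p under 0.05 there were 7 higher (35%, against 7.51% of all genes) and 0 lower. The median of the list was 0.17 on the log2 scale, 0.16 without ASC and 0.10 with ASC. Both within-level medians were positive. The list was chosen with earlier results of these same tumors known, so this is a description and not independent support.

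The GC content of transcripts moved with these results. The correlation of a tumor's deviations with transcript GC content was from -0.20 in Control replicate 3 to 0.24 in As300 replicate 2, with a mean of 0.073 in exposed and -0.066 in unexposed tumors (exact permutation test within ASC levels, two-sided, p = 0.055, adjusted over 4 library measures p = 0.21, n = 6 and 6). Across genes, the iAs difference correlated with GC content at 0.17 over both levels, 0.22 without ASC and 0.016 with ASC. After a correction of each tumor for GC content the difference was 0.40 for Ier3, 0.16 for Junb, 0.16 for Jund, 0.18 for Ier2 and 0.068 for Fosl1, and the median of the AP-1 list was 0.080 over both levels and 0.062 without ASC, with 2 genes higher at p under 0.05 in place of 7. The part of GC content in these results was not tested beyond these values.

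Motifs were sought in the 250 bases before the transcript start of the genes that lead the AP-1 and metallothionein lists, because metal stress acts on metallothionein genes through the metal response element. The search used TGCACNC and TGCGCNC on both strands, in RefSeq promoters of GRCm38.p6, and capitals mark the matches. Mt1 lies at chr8:94178839-94179088 and Mt2 at chr8:94172368-94172617, both on the plus strand, Ier3 at chr17:35821463-35821712 on the plus strand and Junb at chr8:84978749-84978998 on the minus strand.
Mt1: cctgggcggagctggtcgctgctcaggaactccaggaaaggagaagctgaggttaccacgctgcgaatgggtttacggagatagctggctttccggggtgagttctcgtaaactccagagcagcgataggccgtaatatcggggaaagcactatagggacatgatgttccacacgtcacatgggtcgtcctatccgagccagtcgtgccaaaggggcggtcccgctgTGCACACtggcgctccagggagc
Mt2: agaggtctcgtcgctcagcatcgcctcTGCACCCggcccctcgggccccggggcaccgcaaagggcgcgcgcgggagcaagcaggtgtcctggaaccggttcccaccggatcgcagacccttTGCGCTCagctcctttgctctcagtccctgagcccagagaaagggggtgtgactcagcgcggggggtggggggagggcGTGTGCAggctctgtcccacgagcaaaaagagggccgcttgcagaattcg
Ier3: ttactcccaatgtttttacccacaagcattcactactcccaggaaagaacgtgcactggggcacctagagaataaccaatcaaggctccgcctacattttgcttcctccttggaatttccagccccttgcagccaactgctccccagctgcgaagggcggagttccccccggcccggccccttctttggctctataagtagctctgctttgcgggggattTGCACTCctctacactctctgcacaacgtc
Junb: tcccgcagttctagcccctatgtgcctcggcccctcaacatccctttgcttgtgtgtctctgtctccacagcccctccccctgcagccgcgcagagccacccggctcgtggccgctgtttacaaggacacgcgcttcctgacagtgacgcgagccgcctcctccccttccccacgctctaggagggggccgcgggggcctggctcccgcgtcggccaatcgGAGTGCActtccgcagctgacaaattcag
Mt2 held 3 matches, and Mt1, Ier3 and Junb 1 each. These counts cover only the 250 bases before 1 listed transcript start per gene. Matches outside these stretches were not sought, so the counts do not rank the promoters. Of 19 promoters found for 15 of the 20 AP-1 genes, 7 (36.8%) held a match, and of 8 promoters for 7 of the 9 metallothionein and zinc genes 4 (50%) did, against 7032 of all 32851 promoters (21.4%). The hypoxia and glycolysis list, searched in the same way, had a match in 15 of 29 promoters (51.7%). A match is a description of these letters, not a bound site.

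**Figure D2:**
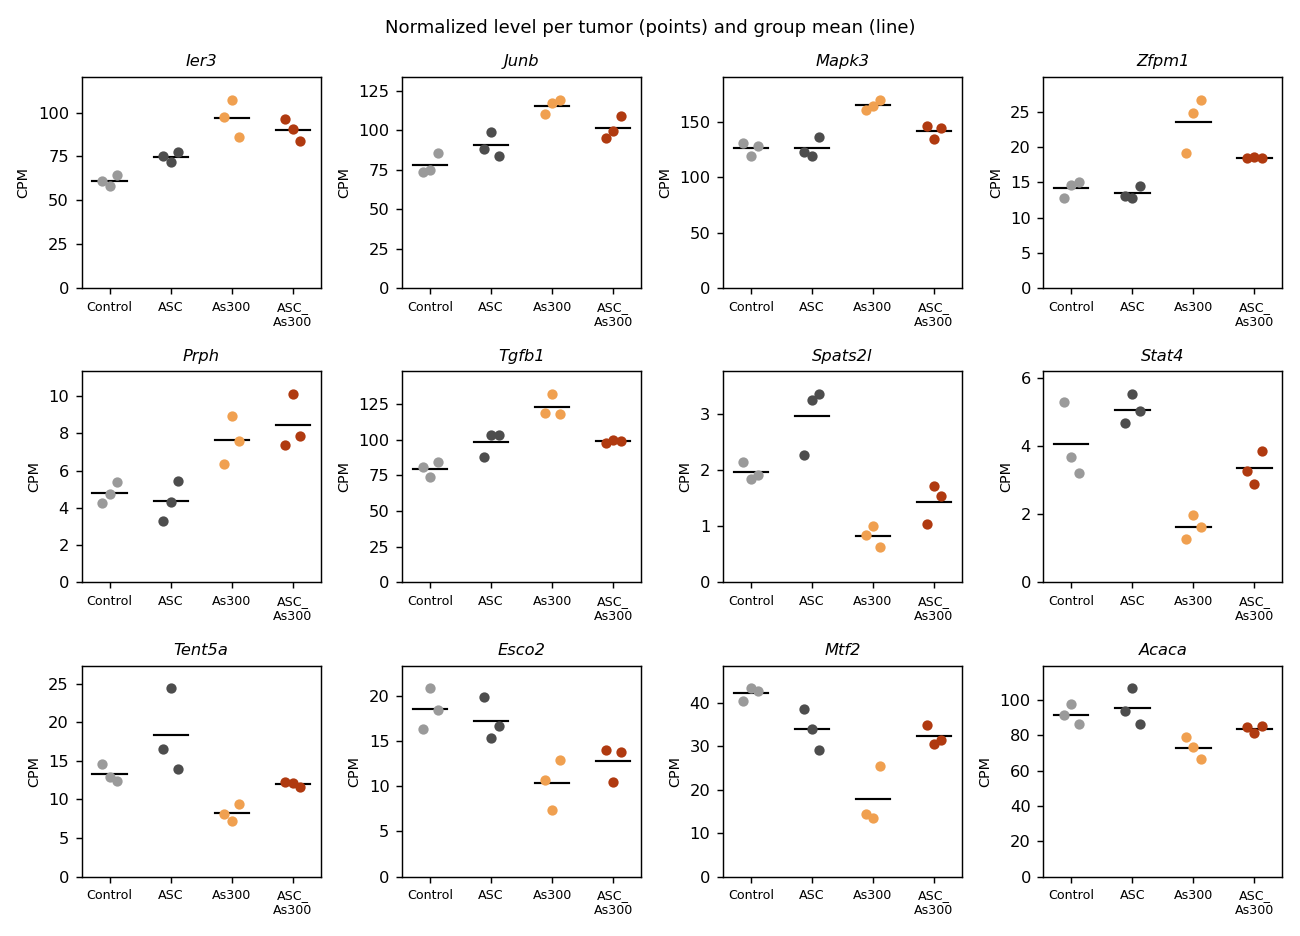
Each panel shows 1 gene, with CPM on the y axis from 0, 1 point per tumor and the group mean as a line, for the 4 groups of 3 tumors. In the panels of Ier3, Zfpm1 and Prph all exposed tumors lie above all unexposed ones, in those of Spats2l, Tent5a, Esco2 and Acaca below, and and in those of Tgfb1 and Mtf2 the ASC_As300 tumors lie within the range of the ASC tumors.

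Genes of the Ras-MAPK pathway, through which the oncogenic Ras of these tumor cells acts, leaned the same way. Mapk3, which encodes the kinase ERK1, had 134, 153 and 169.8 CPM (lowest, median, highest) with iAs and 119, 125 and 137 CPM without, and only ASC replicate 3 among the unexposed tumors exceeded the lowest exposed one. It differed by 0.28 ± 0.053 (0.39 without and 0.17 with ASC). The ERK-responsive gene Phlda1 differed by 0.33 ± 0.11, with 0.67 without and -0.0046 with ASC, and the ETS factor Etv4 by 0.25 ± 0.082. The feedback phosphatase Dusp5 differed by 0.21 ± 0.075, the EGF receptor ligand Areg by 0.40 ± 0.17 and the Ras gene Hras by 0.20 ± 0.086. In the list, 17 of its 24 tested genes were higher and 7 lower. At p under 0.05 there were 8 higher (33.3%, against 7.51% of all genes) and 1 lower (4.17%, against 8.46%). The median was 0.12 on the log2 scale, 0.059 without ASC and 0.11 with ASC. After GC correction Mapk3 differed by 0.17, Phlda1 by 0.20, Etv4 by 0.085, Dusp5 by 0.10 and Hras by 0.075, the list median was 0.080, and 5 genes were higher at p under 0.05. Without ASC replicate 1, 5 genes of the list were higher at p under 0.05.

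Cytokine and immune genes that were also followed by RT-qPCR in these tumors were led by Tgfb1, the main ligand of TGF-beta signaling. It had 81.2, 73.8 and 84.1 CPM in Control, 88.1, 104 and 104 in ASC, 119, 132 and 118 in As300 and 97.4, 99.8 and 99.3 in ASC_As300. The As300 tumors were the highest of all, and the ASC_As300 tumors lay within the range of the ASC tumors. The difference was 0.32 ± 0.060 over both levels, called without ASC at 0.63 ± 0.085 (adjusted p = 0.0356) and 0.0063 ± 0.084 with ASC, with an adjusted p of 0.309 for the interaction. After GC correction the difference over both levels was 0.21. In an exact permutation test that exchanged exposure within ASC levels (400 arrangements, two-sided, smallest possible p of 0.005), Tgfb1 gave p = 0.05 (adjusted over the 6 genes p = 0.3). The macrophage arginase Arg1 differed by 0.29 ± 0.19 (exact p = 0.2) and the cytokine Il1b by 0.32 ± 0.22 (exact p = 0.24). Nos2, Ifng and Irf1 differed by 0.17 ± 0.33, 0.50 ± 0.54 and 0.012 ± 0.086, with exact p-values of 0.775, 0.795 and 0.865, and the directions of these 3 genes changed under other settings. Irf1, a factor that interferon gamma induces, was high in all tumors with ASC whether or not the mice drank iAs, at 164, 143 and 177 CPM in ASC and 155, 188 and 173 CPM in ASC_As300, against 50.7 to 68.1 CPM without ASC.

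In the wider TGF-beta list, 9 of its 21 tested genes were higher and 12 lower, with 5 higher and 1 lower at p under 0.05 and a median of -0.019. Higher were the ligand Tgfb3 (0.17 ± 0.069), the feedback inhibitor Smad7 (0.27 ± 0.10) and Pmepa1, a target that limits the signal (0.19 ± 0.062). Lower was the coreceptor Tgfbr3 (-0.19 ± 0.067). Members of the list lay on both sides of 0, and without ASC replicate 3 the count of lower genes was 6. After GC correction 1 gene was higher at p under 0.05, with Tgfb3 at 0.13, Smad7 at 0.12 and Pmepa1 at 0.088.

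The named genes of at least 1.5-fold with the smallest p were led, among the higher ones, by Zfpm1, a cofactor of GATA factors. Zfpm1 had 12.8, 14.7 and 15.1 CPM in Control, 13.1, 12.8 and 14.6 in ASC, 19.2, 24.8 and 26.7 in As300 and 18.4, 18.7 and 18.5 in ASC_As300, without overlap between exposed and unexposed tumors, and differed by 0.60 ± 0.10 (0.73 without and 0.46 with ASC). After GC correction its difference was 0.37. Prph, which encodes peripherin, an intermediate filament of peripheral neurons, had 4.26, 4.72 and 5.40 CPM in Control, 3.30, 4.29 and 5.43 in ASC, 6.33, 8.91 and 7.61 in As300 and 7.39, 10.1 and 7.85 in ASC_As300, also without overlap, and differed by 0.82 ± 0.16, with 0.67 without and 0.96 with ASC.

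Other leading genes were higher mainly without ASC. Aldoc, the brain form of the glycolytic enzyme aldolase, had 9.95, 11.6 and 18 CPM with iAs and 5.25, 8.04 and 10.4 CPM without (lowest, median, highest), and differed by 1.15 without and 0.15 with ASC. Fbxo2, a ubiquitin ligase subunit that binds glycoproteins, differed by 0.96 and 0.29. The postsynaptic scaffold Shank1 differed by 2.30 and -0.10, and the synaptic vesicle protein Syp by 1.57 and -0.016. Shank1, Syp, Aldoc and Fbxo2 were called without ASC (adjusted p = 0.037, 0.0401, 0.0401 and 0.043). In contrast, Phospho1, a phosphatase of bone mineralization, was 1.54 to 3.53 CPM with iAs and 0.777 to 1.69 without, and differed by 1.06 without and 1.24 with ASC, and Rem2, a small GTPase, differed by 0.63 and 2.02 at levels under 1.23 CPM. The uncharacterized E530011L22Rik (1.24 ± 0.27) and the ribosomal pseudogene Rpl30-ps8 (0.67 ± 0.16) complete the leading genes with measurable levels, and the reads of the latter cannot be told apart from those of its parent.

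Genes outside that rule, named after their values were seen, included Smox, the spermine oxidase that makes hydrogen peroxide, which was 48.3 to 65 CPM with iAs and 32.3 to 44.3 without, with no overlap (0.47 ± 0.081). The metastasis suppressor Cd82 differed by 0.40 ± 0.073, and Tnfaip2, a TNF-induced gene, by 0.33 ± 0.083 without overlap. All 3 were higher at both ASC levels, by 0.64 and 0.29 for Smox, 0.58 and 0.22 for Cd82, and 0.31 and 0.36 for Tnfaip2.

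Among the lower genes, Spats2l had 2.15, 1.84 and 1.91 CPM in Control, 2.27, 3.24 and 3.36 in ASC, 0.851, 1.00 and 0.636 in As300 and 1.04, 1.72 and 1.54 in ASC_As300, and no exposed tumor reached an unexposed one. It differed by -1.14 ± 0.21, with -1.25 ± 0.30 without and -1.04 ± 0.30 with ASC. Tent5a, a noncanonical poly(A) polymerase, had 7.20, 10.6 and 12.3 CPM with iAs and 12.5, 14.2 and 24.4 CPM without, again separated, and differed by -0.65 ± 0.14 (-0.69 and -0.61). Esco2, which acetylates cohesin during DNA replication, had 7.34, 11.8 and 14 CPM with iAs and 15.3, 17.5 and 20.8 CPM without, and differed by -0.64 ± 0.14 (-0.85 and -0.44). Chpt1, which makes phosphatidylcholine and was named after its values were seen, was 8.75 to 16.1 CPM with iAs and 16.6 to 41.2 without (-0.89 ± 0.22). In each of these 4 genes every exposed tumor lay below every unexposed one.

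Stat4, the transcription factor of interleukin 12 signaling, had 5.29, 3.66 and 3.21 CPM in Control, 4.66, 5.52 and 5.01 in ASC, 1.28, 1.98 and 1.62 in As300 and 3.28, 2.88 and 3.86 in ASC_As300. The As300 tumors were the lowest, and the ASC_As300 tumors overlapped the Control tumors but lay below all ASC tumors. It differed by -0.96 ± 0.18 (-1.31 and -0.60). Mtf2, a Polycomb protein that guides PRC2 to chromatin, was at 40.5, 43.4 and 42.8 CPM in Control and 14.4, 13.4 and 25.5 in As300, but at 38.7, 34 and 29.2 in ASC and 35.1, 30.6 and 31.5 in ASC_As300. Its difference was -1.25 ± 0.20 without ASC, where it was called (adjusted p = 0.0401), and -0.069 ± 0.20 with ASC. Gucy1a1, a subunit of soluble guanylate cyclase, differed by -0.94 ± 0.21, the zinc finger gene Zfp518a by -0.90 ± 0.21, Mtcp1 by -0.61 ± 0.14, and Mterf1a, a mitochondrial transcription factor, by -0.75 ± 0.18 (-0.59 and -0.91). The other lower genes of the rule were the unnamed loci Gm5182 (-0.77 ± 0.13), Gm43197 (-1.21 ± 0.27) and E430024I08Rik (-0.77 ± 0.18), and the fat genes G0s2 and Pck1 described with the adipocyte list.

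A further 6 genes that the rule names sat near 0, in the sense that at least 1 group had no tumor above 12 counts, the floor set as 3 read pairs at 4 counts each, and no fold is given for them. Sox15 had 7 to 17 counts with iAs and 0 to 4 without, Gkn1 7 to 22 counts with iAs and 0 to 10 without, Cdh10 4 to 18 counts with iAs and 0 to 12 without, and Srrm3 0 to 28 counts with iAs and 0 in all unexposed tumors. Sox15 did not overlap between the arms. Gm29253 had 0 to 446 counts with iAs and 0 to 4 without, and its high levels came from As300 replicates 2 and 3. Gm16325, the only lower gene of these, had 0 counts in all 3 ASC_As300 tumors and 18 or fewer in As300, against 5 to 20 without iAs. The floor covers counting error only.

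Genes of the classical response to arsenic showed small differences. Mt1, a metallothionein that binds metal ions, had 116, 156 and 185 CPM in Control, 178, 129 and 186 in ASC, 253, 196 and 166 in As300 and 215, 163 and 209 in ASC_As300. As300 replicate 1 was the highest and the ranges of all groups overlapped. Mt1 differed by 0.34 ± 0.14 (unadjusted p = 0.0307, adjusted p = 0.271, 0.43 without and 0.25 with ASC) and Mt2 by 0.30 ± 0.14 (0.39 and 0.21). Mt3, the metallothionein of brain, was called without ASC (2.08 ± 0.50, adjusted p = 0.0482) and differed by -0.12 ± 0.48 with ASC, at no more than 2.20 CPM in any tumor. The zinc transporters Slc30a4 and Slc39a10 differed by -0.22 ± 0.089 and -0.21 ± 0.082. In the list of metallothioneins and metal-responsive genes, 6 of its 9 tested genes were higher and 3 lower, with 2 and 2 at p under 0.05 and a median of 0.033.

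As3mt, which methylates arsenic, had 11.7, 15 and 17.6 CPM with iAs and 12, 14.1 and 16.8 CPM without, so that the arms overlapped widely, and differed by 0.063 ± 0.12. Gsto1, a glutathione transferase that reduces arsenic species, was 145 to 179.6 CPM with iAs and 129 to 165 without and differed by 0.21 ± 0.069, with a similar value at both levels (0.26 and 0.16). Gstp1, which conjugates glutathione, differed by 0.66 ± 0.15 without ASC, where it was called (adjusted p = 0.0453), and -0.029 ± 0.15 with ASC. Aqp7, an aquaporin of fat cells that also lets arsenite pass, differed by -2.24 ± 0.88, and by -1.02 without ASC replicate 2, the tumor rich in adipocyte RNA. Of the arsenic handling list, 9 of its 15 tested genes were higher and 6 lower, and 3 higher and 1 lower had p under 0.05.

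The NRF2 target Hmox1, heme oxygenase, had 100.05, 142 and 124 CPM in Control, 128, 201 and 120.4 in ASC, 237, 111 and 90.1 in As300 and 177, 130.5 and 142 in ASC_As300, and As300 replicate 1 was the highest, followed by ASC replicate 2. It differed by 0.13 ± 0.22, and by -0.14 without As300 replicate 1. Nqo1 differed by 0.14 ± 0.17, with -0.11 without and 0.39 with ASC. The ferritin chains Ftl1 and Fth1 were higher by 0.24 ± 0.076 and 0.16 ± 0.075 and the malic enzyme Me1 lower (-0.13 ± 0.050). Of 23 NRF2 targets 15 were higher, 2 higher and 1 lower had p under 0.05, and the median was 0.061. In the selenoprotein list, whose members contain selenium, an element that arsenic binds, 15 of its 20 tested genes were higher and 5 lower, with 3 and 0 at p under 0.05, led by Selenom (0.28 ± 0.093), the lipid peroxidase Gpx4 (0.23 ± 0.091) and the methionine sulfoxide reductase Msrb1 (0.22 ± 0.10), all near 0 with ASC (-0.032, 0.033 and -0.024). After GC correction they were at 0.14, 0.094 and 0.15, and Ftl1 at 0.12.

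Heat shock genes lay on both sides of 0. The cochaperone Chordc1 differed by -0.24 ± 0.069 (-0.018 after GC correction), the Hsp110 member Hspa4 by -0.15 ± 0.051, and the Hsp40 member Dnajb1 by 0.28 ± 0.10. Hspa1a, the strongly inducible Hsp70, was 23.3 to 67.8 CPM with iAs and 9.61 to 34.2 without and differed by 0.50 ± 0.30 (unadjusted p = 0.128). Of 20 tested genes, 1 higher and 3 lower had p under 0.05, with a median of 0.046. Of the unfolded protein response list, 1 and 1 of 22 did (median 0.0049), the stress-induced mTOR inhibitor Ddit4 being higher by 0.30 ± 0.12 and the chaperone Hsp90b1 lower (-0.18 ± 0.076). Among the p53 targets, the cell cycle inhibitor Cdkn1a (0.24 ± 0.061) and the pro-apoptotic Bax (0.34 ± 0.10, called without ASC with adjusted p = 0.045, and 0.20 over both levels after GC correction) were higher and the receptor Eda2r lower (-0.36 ± 0.13), with 3 and 2 of 20 at p under 0.05 and a median of -0.078.

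**Figure D3:**
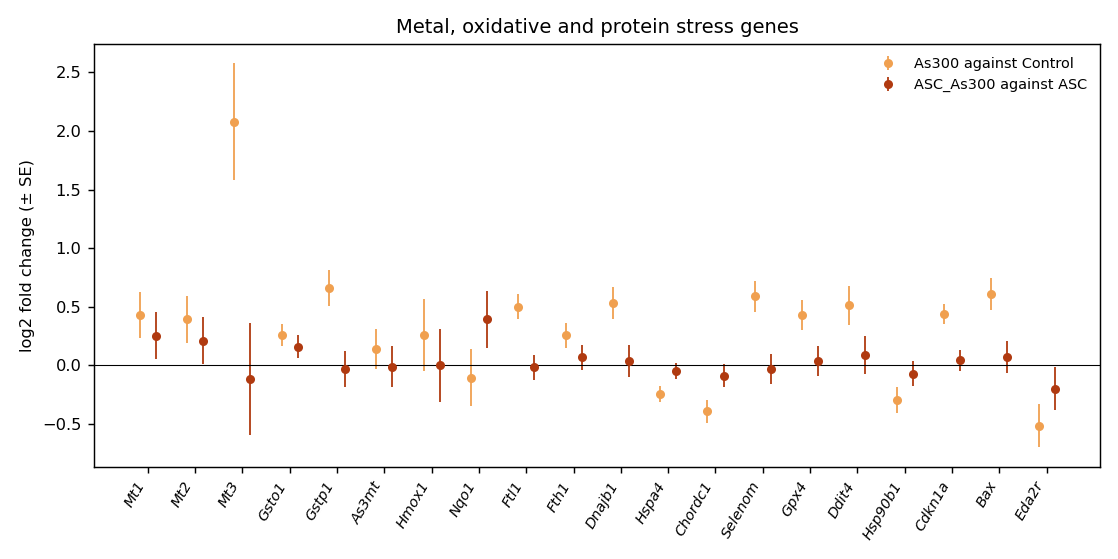
For 20 genes of the metal, oxidative and protein stress lists, the log2 iAs difference (y axis, points) with its SE (bars) is shown without ASC (orange) and with ASC (dark red). The points with ASC lie near 0 for most genes, those of Mt1, Mt2 and Gsto1 are positive at both levels, and Mt3 has the largest difference without ASC.

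Glycolytic and hypoxia genes, which tumors use to make energy and lactate at low oxygen, had a positive median difference at both ASC levels. Ldha, lactate dehydrogenase, had 1042, 1145 and 1104 CPM in Control, 1144, 924 and 1151 in ASC, 1253, 1294 and 1279.6 in As300 and 1323, 1174 and 1233 in ASC_As300, and no exposed tumor overlapped an unexposed one. It differed by 0.21 ± 0.066, 0.22 without and 0.21 with ASC. Ankrd37, a target of the hypoxia-inducible factor, was separated as well, with 16.5, 18.5 and 20.2 CPM with iAs and 12.9, 14.6 and 16.4 CPM without, and differed by 0.33 ± 0.087 (0.31 and 0.35). The enolase Eno1 differed by 0.22 ± 0.067, the pyruvate kinase Pkm by 0.20 ± 0.075 and the phosphofructokinase Pfkl by 0.22 ± 0.071. After GC correction Pkm and Pfkl were at 0.12 and 0.10. Gapdh differed by 0.42 ± 0.10, but at 37.4 to 79.5 CPM its level lies far under that of Ldha. Gapdh has many near-identical pseudogenes, and since how shared reads were counted is not given in the sources used here, its value is uncertain.

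Of the 22 tested entries of the hypoxia and glycolysis list, in which 1 symbol has 2 identifiers, 18 were higher, 13 without ASC and 20 with ASC. At p under 0.05 there were 7 higher (31.8%, against 7.51% of all genes) and 0 lower, or 4 and 0 after GC correction. The median was 0.13 on the log2 scale, 0.085 without ASC and 0.19 with ASC, and after GC correction 0.12 over both levels and 0.031 without ASC. In fits that each left out 1 tumor it ran from 0.082 (without ASC replicate 2) to 0.22 (without ASC replicate 1), and the number higher at p under 0.05 reached 12 without ASC replicate 1. The promoter of Ldha (chr7:46845554-46845803, plus strand, GRCm38.p6) is shown because this gene separated the arms, with capitals for the core ACGTG of the hypoxia response element on either strand.
Ldha: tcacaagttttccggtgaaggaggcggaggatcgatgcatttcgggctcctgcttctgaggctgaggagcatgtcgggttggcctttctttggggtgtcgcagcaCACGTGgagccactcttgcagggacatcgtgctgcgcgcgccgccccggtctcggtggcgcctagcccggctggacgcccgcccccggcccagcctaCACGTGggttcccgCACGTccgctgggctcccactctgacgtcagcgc
It held 5 matches, those that read the same on both strands counted on each. Of 29 promoters of 20 of the list's genes 16 (55.2%) held a match, against 5444 of all 32851 promoters (16.6%). The AP-1 list had 6 of 19 (31.6%) and the metallothionein list 1 of 8 (12.5%).

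Genes of fatty acid synthesis were mostly lower. Acaca, acetyl-CoA carboxylase, which commits carbon to fatty acid synthesis, had 91.5, 97.6 and 86.4 CPM in Control, 93.7, 107 and 86.4 in ASC, 78.9, 73.7 and 66.5 in As300 and 85, 81.2 and 85.2 in ASC_As300, and exposed tumors lay below unexposed ones without overlap. It differed by -0.26 ± 0.065 (-0.33 without and -0.19 with ASC). The fatty acid synthase Fasn and the citrate lyase Acly differed by -0.16 ± 0.075 and -0.13 ± 0.056. Of 16 genes of fatty acid synthesis and its regulator SREBP1, 1 was higher and 15 lower. At p under 0.05 there were 7 lower (43.75%, against 8.46% of all genes). The median was -0.16 on the log2 scale, -0.23 without ASC and -0.13 with ASC. The median with ASC was -0.045 when ASC replicate 2 was left out. Left out 1 at a time, tumors moved the number at p under 0.05 between 3 (without ASC_As300 replicate 2) and 7, and it was 4 without ASC replicate 2. Fat cells make these enzymes too, and the desaturase Scd1 (-1.85 ± 0.47) and the lipase Pnpla3 (-3.90 ± 1.33) were at -0.96 and -1.54 without that tumor, which had the most adipocyte RNA. Pnpla3 lay near 0, at 0 to 0.80 CPM with iAs (median 0.065) and 0 to 7.34 CPM without (median 1.40), so its fold is uncertain. The part of fat cells in the values of this list was not tested. In the sterol list 0 higher and 2 lower of 20 had p under 0.05, among them Hmgcs1 (-0.20 ± 0.063).

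Adipocyte markers were lower with iAs at both ASC levels when all tumors were used. Their summed level was 901, 717 and 393 CPM in Control, 198, 1634 and 233 in ASC, 360.1, 263 and 180.0 in As300 and 182, 277 and 223 in ASC_As300. Control replicates 1 and 2 and ASC replicate 2 were high, while ASC replicates 1 and 3 lay within the range of the exposed tumors. Adipoq, the fat hormone adiponectin, had 27.3, 18.5 and 11.2 CPM in Control, 1.21, 54.9 and 1.65 in ASC, 4.38, 6.81 and 1.38 in As300 and 0.149, 4.52 and 2.39 in ASC_As300, and differed by -2.61 ± 0.91. The lipid droplet protein Plin1 differed by -3.16 ± 0.91, the fatty acid carrier Fabp4 by -1.68 ± 0.47, the adipose lipase inhibitor G0s2 by -2.71 ± 0.65 and Pck1, an enzyme of glycerol synthesis in fat, by -4.26 ± 1.04.

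All 20 tested adipocyte genes were lower with iAs, 17 of them at p under 0.05, against 8.46% of all genes, with a median of -1.86 on the log2 scale, -1.65 without ASC and -2.29 with ASC. Earlier results of these data were known when this list was chosen, so its share beside that of all genes is a description. Without ASC replicate 2 the median was -0.70, with 5 genes at p under 0.05, and the median with ASC was 0.22, of the opposite sign. Without that tumor Adipoq differed by -0.74, Plin1 by -1.24 and Pck1 by -2.15. The difference with ASC rested on 1 tumor, whereas without ASC the 3 Control tumors all lay above the 3 As300 tumors in summed level.

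**Figure D4:**
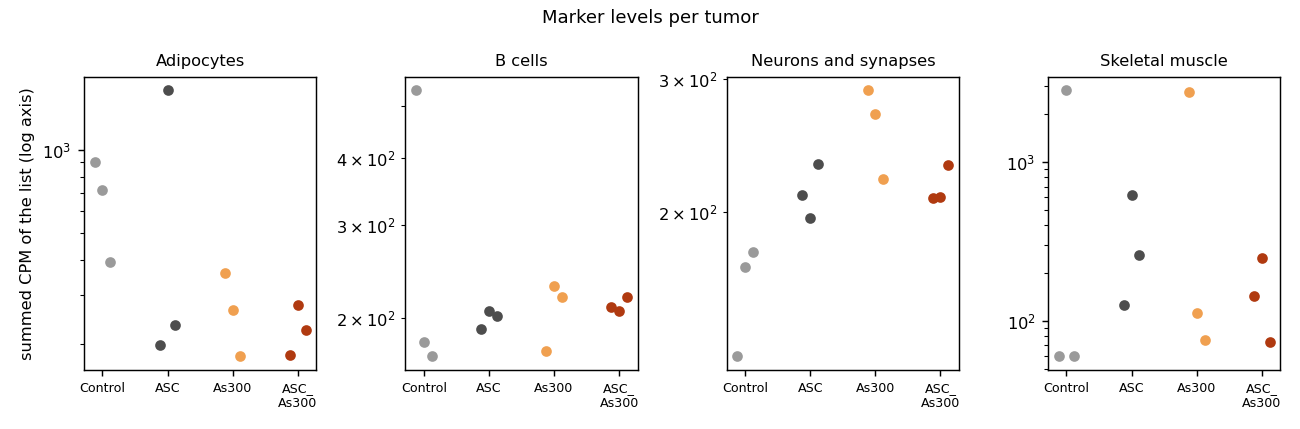
For 4 marker lists, the summed CPM of all tested members (y axis, log scale, which differs between panels) is shown for each tumor of the 4 groups. Single tumors stand out: ASC replicate 2 in adipocyte genes, Control replicate 1 in B cell genes, and Control replicate 2 and As300 replicate 1 in muscle genes, while neuronal genes were lowest in the 3 Control tumors.

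Genes that act on RNA and chromatin were mostly lower with iAs, mainly without ASC. The splicing factor Srsf1 had 311, 344 and 373 CPM with iAs and 361, 396 and 425 CPM without, overlapping through the ASC and ASC_As300 tumors, and differed by -0.21 ± 0.055 (-0.34 and -0.091). Luc7l3 and Tra2b, also splicing regulators, differed by -0.27 ± 0.072 and -0.17 ± 0.047. Of 28 such genes 24 were lower, 14 at p under 0.05, against 8.46% of all genes, with a median of -0.15 on the log2 scale, -0.28 without ASC and -0.0085 with ASC. This list was chosen with earlier results of these data known, so its share beside that of all genes is a description. The count at p under 0.05 was 7 without ASC replicate 1 and 16 without ASC replicate 3. After GC correction the median was -0.024, 0 genes had p under 0.05, and Srsf1, Luc7l3 and Tra2b were at -0.10, -0.11 and 0.0052.

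Chromatin enzymes lay on the same side. The histone methyltransferase Kmt2c differed by -0.32 ± 0.082 (-0.25 after GC correction), the methyltransferase Setd2 by -0.31 ± 0.082 (-0.20) and the PRC2 subunit Suz12 by -0.25 ± 0.079 (-0.074). Of 27 genes 24 were lower, 8 of them at p under 0.05 (29.6%, against 8.46% of all genes). The median was -0.13 on the log2 scale, -0.25 without ASC and 0.026 with ASC. After GC correction the median was -0.12, with 5 genes at p under 0.05. The count at p under 0.05 ran from 4 without ASC replicate 1 to 12 without ASC replicate 3, and the median with ASC was -0.012 and -0.031 without ASC replicates 2 and 3. In the cell cycle list 1 higher and 3 lower of 22 had p under 0.05 (median -0.0024). Mki67, the proliferation marker, differed by -0.42 ± 0.12, Bub1, of the spindle checkpoint, by -0.24 ± 0.071, and Top2a by -0.19 ± 0.064. After GC correction these were at -0.35, -0.059 and -0.056.

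Genes of ribosomes and of oxidative phosphorylation lay on the other side. The ribosomal protein gene Rps20 had 343, 354 and 336 CPM in Control, 459, 491 and 566 in ASC, 479.7, 562 and 598 in As300 and 428, 543 and 552 in ASC_As300. The 3 Control tumors were the lowest, and the ASC tumors lay within the exposed range. Of 89 cytosolic ribosomal protein genes 80 were higher and 29 had p under 0.05 (32.6%, against 7.51% of all genes). Their median was 0.14 on the log2 scale, 0.32 without ASC and -0.027 with ASC. Of 75 nuclear subunits of the respiratory chain 69 were higher, 25 at p under 0.05 (33.3%, against 7.51% of all genes). Among them were Atp5e (0.39 ± 0.11) and Ndufa13 (0.29 ± 0.081, or 0.12 after GC correction). The median of these subunits was 0.15 on the log2 scale, 0.37 without ASC and -0.045 with ASC. Without ASC replicate 3, 50 ribosomal and 40 respiratory genes had p under 0.05, and without As300 replicate 2 the counts were 17 and 16. After GC correction these counts were 19 and 18. Both medians were negative with ASC, and without ASC replicate 3 they were positive there, at 0.10 and 0.043. Ribosomal protein genes have many pseudogenes, and how the counting treated shared reads is not given in the sources used here.

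The 13 subunits encoded in mitochondrial DNA were all lower, 4 at p under 0.05, with a median of -0.14 on the log2 scale, -0.22 without ASC and -0.075 with ASC, led by mt-Atp8 (-0.37 ± 0.084) and mt-Nd4l (-0.36 ± 0.11). After GC correction their median was 0.075, of the opposite sign, and mt-Atp8 was at -0.066. Replication-dependent histone genes, whose transcripts mostly lack a poly(A) tail, had 49 of 61 higher, 6 at p under 0.05, with a median of 0.26 on the log2 scale, 0.57 without ASC and -0.10 with ASC. Without As300 replicate 2 the count was 3. The median with ASC was 0.17 without ASC replicate 2 and 0.062 without ASC replicate 3, and the median over both levels was 0.15 after GC correction. Of 18 circadian clock genes, the repressors Bhlhe41 (0.40 ± 0.084) and Bhlhe40 (0.27 ± 0.070) were higher and Clock lower (-0.31 ± 0.10, or -0.14 after GC correction). Bhlhe41 and Bhlhe40 were higher in all 3 exposed tumors than in all 3 unexposed tumors at each ASC level, and Bhlhe41 was at 10.8, 13 and 12.4 CPM in ASC and 19.2, 17.1 and 17.2 CPM in ASC_As300.

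**Figure D5:**
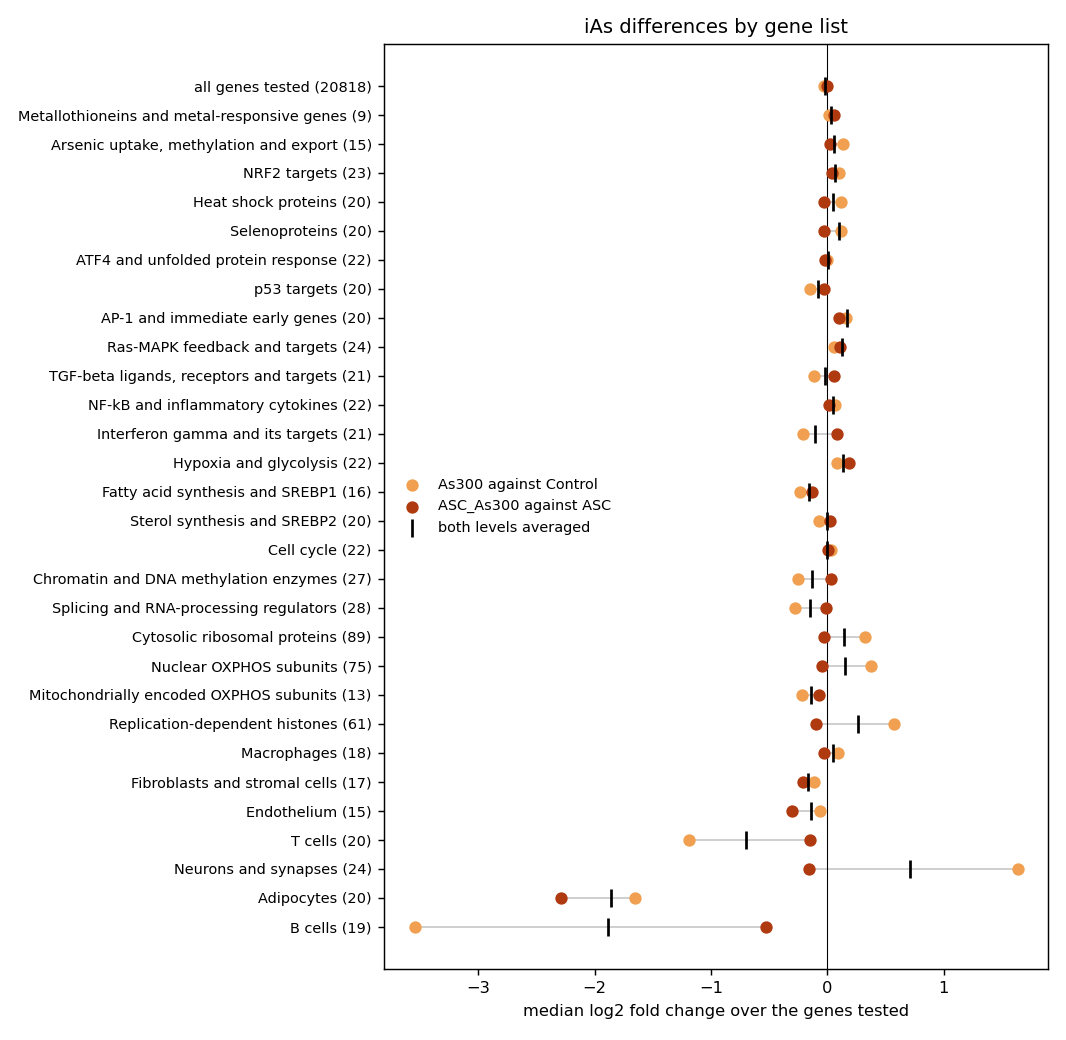
For each gene list (number of genes tested in brackets), points on the x axis give the median log2 iAs difference without ASC (orange) and with ASC (dark red), and a black bar marks the median over both levels. The B cell and T cell lists lie farther below 0 without ASC than with ASC, the neuronal list lies above 0 without ASC and near 0 with ASC, and the adipocyte list lies below 0 at both levels.

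Lymphocyte genes were lower with iAs, mainly through 1 unexposed tumor. Ms4a1, which encodes CD20 of B cells, was at 28, 0.441 and 0.890 CPM in Control and 0, 0.143 and 0.0706 CPM in As300, and the B cell factor Pax5 at 21.5, 0.480 and 0.781 CPM in Control and 0.125, 0.307 and 0.141 CPM in As300. Of these 6 tumors Control replicate 1 alone was high in both genes. Of 19 B cell genes 17 were lower and 14 lower had p under 0.05 (73.7%, against 8.46% of all genes). Their median was -1.89 on the log2 scale, -3.55 without ASC and -0.53 with ASC. Without Control replicate 1 the median was -0.20 over both levels and -0.051 without ASC, with 2 genes lower at p under 0.05. The B cell median with ASC was 0.030 without ASC replicate 2. The plasma cell list went from 8 genes lower at p under 0.05 to 1 without that tumor (Jchain, the joining chain, at -0.89 in place of -2.89), and the T cell list from 7 to 0. Without Control replicate 3, the T cell count was 12. MHC class II genes changed sign, from a median of -0.18 to 0.23.

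Macrophage genes differed little. The complement genes C1qa, C1qb and C1qc, made by macrophages, were higher by 0.21 ± 0.075, 0.25 ± 0.089 and 0.22 ± 0.082, at 0.47, 0.47 and 0.46 without ASC against -0.054, 0.030 and -0.029 with ASC. After GC correction the 3 genes differed by 0.053, 0.13 and 0.10 over both levels. C1qa had 183, 190.4 and 159 CPM in Control, 285, 366 and 284 in ASC, 247, 249 and 243 in As300 and 275, 314 and 312 in ASC_As300, and the ASC and ASC_As300 tumors overlapped while every As300 tumor was above every Control tumor. Of 18 macrophage genes 3 higher and 1 lower had p under 0.05, and 0 in either direction after GC correction, with a median of 0.048. Interferon gamma targets had 1 higher and 2 lower of 21 at p under 0.05 (median -0.10, and 0.034 without Control replicate 1), with the guanylate-binding protein Gbp7 at -0.46 ± 0.16 and the feedback inhibitor Socs1 at 0.37 ± 0.13. In the NF-kB list 2 and 1 of 22 had p under 0.05, with the subunit Rela at 0.22 ± 0.066 (0.080 after GC correction) Nfkb2 at 0.13 ± 0.049 (-0.020 after GC correction) and Rel at -0.32 ± 0.14 (-0.18). Of the checkpoint receptors, Pdcd1 differed by -0.12 ± 0.33 and Lag3 by 0.20 ± 0.25, smaller than their SE, and both changed sign when single tumors were left out.

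Further genes and factors that the text of the study takes up were tested, apart from Tmprss2, which did not pass the filter. The ligand of PD-1, Cd274, differed by -0.14 ± 0.14, the chemokine receptor Cxcr6 by -0.29 ± 0.30 and the chemokine Ccl3 by -0.19 ± 0.29. Stat3 differed by 0.0012 ± 0.050, the kinase Ikbkb by -0.11 ± 0.065, the myeloid factor Irf8 by 0.047 ± 0.16, the lipid regulator Srebf1 by 0.081 ± 0.045 and the growth factor gene Fgf12 by 0.62 ± 0.58. All of these had an unadjusted p over 0.05, and the signs of Stat3, Irf8 and Srebf1 changed under other settings. Tcf3, a factor of many cell types, differed by 0.25 ± 0.073 (unadjusted p under 0.05, and 0.061 after GC correction), and Ebf1 and Pparg, which fat cells also make, by -0.56 ± 0.22 and -0.62 ± 0.26, against -0.36 and -0.32 without ASC replicate 2. The adipocyte and myeloid factor Cebpa differed by -0.21 ± 0.20, and the B cell factors Pou2f2 and Pou2af1 by 0.011 ± 0.24 and -2.30 ± 1.11, the latter by -0.20 without Control replicate 1, and the signs of Cebpa and Pou2f2 changed when single tumors were left out.

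Stromal and vascular markers lay slightly below 0. Among fibroblast and stromal genes 15 of 17 were lower, 3 at p under 0.05, with a median of -0.17 on the log2 scale, -0.12 without ASC and -0.21 with ASC, and they included Postn, a matrix protein of activated stroma (-0.44 ± 0.13), Acta2, smooth muscle actin (-0.65 ± 0.25), and Lum, a collagen-binding proteoglycan (-0.45 ± 0.18). Without ASC replicate 2 they were at -0.32, -0.38 and -0.28, with 1 gene of the list at p under 0.05. Of 41 collagen genes 29 were lower, 6 at p under 0.05 and 0 without ASC_As300 replicate 1. The endothelial genes Pecam1 and Kdr differed by -0.31 ± 0.12 and -0.34 ± 0.13 and the arterial factor Sox17 by -0.45 ± 0.15, with 4 of 15 endothelial genes lower at p under 0.05 and 1 without ASC replicate 2. The endothelial median was -0.14 on the log2 scale, -0.067 without ASC and -0.31 with ASC. Of the 15 genes, 7 were higher without ASC and 0 with ASC. When ASC replicate 2 was left out, the median with ASC was -0.19. The keratins Krt8 and Krt18 differed by -0.48 ± 0.33 and -1.23 ± 0.69 through Control replicate 1, at 337, 62.1 and 89.9 CPM of Krt8 in the Control tumors, and by 0.073 and 0.25 without it. In the tumor epithelium list, 2 of its 8 tested genes were higher and 6 lower, with a median of -0.16, or 0.073 without Control replicate 1. The higher members were Krt19 (0.78 ± 0.22) and Cldn4 (1.46 ± 0.54). Of 20 muscle genes 0 had p under 0.05, with a median of -0.98, but 14 were lower at that level without As300 replicate 1 and 5 higher without Control replicate 2, the muscle-rich tumors.

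All 24 tested neuronal and synaptic genes were higher with iAs in the model, 11 at p under 0.05, against 7.51% of all genes, with a median of 0.71 on the log2 scale, 1.64 without ASC and -0.16 with ASC. These genes were listed with earlier results of these data known, so their share beside that of all genes is a description. Their summed level was 129, 169.6 and 177 CPM in Control and 289.9, 270.0 and 221 CPM in As300, and 211, 196 and 232 CPM in ASC and 209, 209.7 and 231 CPM in ASC_As300. The Control tumors were the lowest and the ASC tumors overlapped the ASC_As300 tumors. Without Control replicate 1, the lowest of all, the median over both levels was 0.48 with 14 genes at p under 0.05, and without ASC replicate 1 that count was 7. The myelin and astrocyte list had a median of 0.44 on the log2 scale, 1.14 without ASC and -0.12 with ASC.

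The remaining lists held few genes at p under 0.05. Of 15 aryl hydrocarbon receptor and xenobiotic genes 1 higher and 3 lower reached it (median -0.18), of 18 genes of cytotoxic T and NK cells 0 and 2 (-0.20), of 12 neutrophil genes 0 and 2 (-0.13) and of 12 dendritic cell genes 2 and 1 (-0.17). Checkpoint genes had 0 and 1 of 13 (-0.10), genes of the mesenchymal state 3 and 3 of 12 (-0.034), glucocorticoid-responsive genes 2 and 2 of 12 (-0.087) and long nuclear RNAs 2 and 0 of 14 (-0.055). None of the 6 erythroid or 8 keratinocyte genes tested reached it, with medians of 0.20 and 0.31. Leaving out 1 tumor changed the sign of some of these medians, with -0.55 (without As300 replicate 1) to 0.051 (without Control replicate 1) for neutrophil, -0.14 (without As300 replicate 1) to 0.034 (without As300 replicate 2) for checkpoint and -0.052 (without ASC_As300 replicate 2) to 0.42 (without ASC replicate 2) for erythroid genes.

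Over both levels, 5051 genes (24.3%) were higher and 5858 (28.1%) lower with iAs at each level by the model. A stricter count took genes whose 3 exposed and 3 unexposed tumors did not overlap. Without ASC this held for 3022 genes that were higher (14.5%) and 3197 lower (15.4%), and with ASC for 868 (4.17%) and 813 (3.91%). At both levels it held for 121 genes higher at both (0.581%), 93 lower at both (0.447%) and 132 in opposite directions (0.634%). Ier3, Zfpm1, Prph, Smox, Tnfaip2, Ankrd37, Ldha, Bhlhe40 and Bhlhe41 were among those higher at both, and Spats2l, Tent5a, Esco2, Chpt1, Stat4, Acaca and Mterf1a among those lower at both.

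Some genes had very high or very low levels in a part of 1 group. Gm21982, an unnamed locus, was the only call when ASC_As300 and ASC were fitted alone (adjusted p = 0.00654), with 2.11, 2.44 and 29.5 CPM in Control, 1.13, 1.34 and 1.91 in ASC, 0.675, 3.31 and 3.12 in As300 and 19.7, 29.3 and 16.7 in ASC_As300, and Control replicate 3 was as high as the highest ASC_As300 tumor. Kantr, a long noncoding RNA, was at 0.949, 0.395 and 13.3 CPM in ASC_As300 against 13.3 to 20.9 CPM without iAs, and Ctf1, cardiotrophin, at 0.350, 4.66 and 0.230 CPM in As300 against 3.10 to 4.53 CPM. In Kantr and Ctf1, tumors of 1 exposed group held both very low levels and levels at those of unexposed tumors.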

How the data were processed

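RNA of 12 tumors, 3 per group, was sequenced from poly(A)-selected, stranded, paired-end libraries. The authors deposited raw counts per gene, and the submitters' processing notes name cutadapt 1.1.0, HISAT2 2.0, StringTie 1.3.4, edgeR and DESeq2. The genome build, annotation and counting step are not given in the sources used here, and low counts stood at multiples of 4 more often than beside them. All 12 columns were mapped to samples. Genes passing edgeR's filterByExpr were fitted with 1 coefficient per group (residual df 8) in edgeR 4.0.16 (R 4.3.3, limma 3.58.1), TMM-scaled, with quasi-likelihood tests of the mean of both iAs differences, each difference and their interaction, adjusted by Benjamini-Hochberg. Log2 CPM used a prior count of 2. Alternatives used DESeq2 1.42.0, limma-voom, and GC content from GENCODE M21. Exact tests exchanged exposure within ASC levels. Code was tested on simulated data.

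Named were up to 15 genes per direction with the smallest p at 1.5-fold or more, up to 3 of each list, and genes the study names. Mt1, Mt2 and other stress, lipid and signaling genes were named after their values were seen. The comparison and the 46 gene lists were chosen with earlier results of these data known. Some items are not reported here.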

Additional observations from a re-analysis of the deposited data

How the results depend on the processing

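The count of 0 calls for the iAs difference over both ASC levels held with limma-voom, DESeq2 size factors, no filter on low counts, a minimum of 10 counts, an additive model, robust moderation, GC correction and counts divided by 4. DESeq2, run without the filter on low counts, called 30 genes higher and 84 lower, and an unadjusted p under 0.05 with 1.5-fold gave 188 and 497. Fits that left out 1 tumor called 0 to 14 higher and 0 to 45 lower, the most without ASC replicate 3. Single calls came without As300 replicate 2 (Ctf1), As300 replicate 3 (Mtf2) and ASC_As300 replicate 3 (Kantr). Genes lower at an unadjusted p under 0.05 numbered 956 with GC correction and 871 with GC correction and replicate block, and 1113 to 2212 higher and 1212 to 2280 lower genes were found at that level when 1 tumor was left out. For the interaction DESeq2 called 23 and 121 genes, and leaving out 1 tumor 0 to 1 and 0 to 1. Genes with a more positive interaction at an unadjusted p under 0.05 numbered 878 with GC correction, 794 with GC correction and replicate block, 981 with counts divided by 4, and 750 to 2042 without 1 tumor, and those with a more negative one 932 to 2079. The share of same signs ran from 24.2 to 86.4% for genes ranked without ASC and 46.2 to 81.2% for genes ranked with ASC. Of genes at an unadjusted p under 0.05, 47% were higher, and 53% with GC correction, 55.2% with a minimum of 10 counts and 55.3% with counts divided by 4. The causes were not tested.

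The replicate block gave 0 calls and a smallest adjusted p of 0.182, with 1542 higher and 1682 lower genes at an unadjusted p under 0.05. No pairing of tumors by replicate number is described in the sources used here. Deviations of tumors with the same number correlated at -0.12 to 0.17 (18 pairs, median 0.027) and those with different numbers at -0.22 to 0.25 (36 pairs, median -0.014). These values cannot exclude a batch shared by number.

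With limma-voom the log2 differences that changed sign were Ifng -0.070. With a GC correction the log2 differences that changed sign were Irf1 -0.046, Nfkb2 -0.020, Tra2b 0.0052, Stat3 -0.029, Irf8 -0.048, Srebf1 -0.072 and Pou2f2 -0.10. With a GC correction and a replicate block the log2 differences that changed sign were Irf1 -0.040, Nfkb2 -0.020, Tra2b 0.0034, Stat3 -0.030, Irf8 -0.040, Srebf1 -0.073 and Pou2f2 -0.074. When 1 tumor was left out, the differences that changed sign in at least 1 fit ran, lowest to highest, for As3mt -0.0015 to 0.14, Cebpa -0.32 to 0.0031, Hmox1 -0.14 to 0.27, Irf1 -0.028 to 0.089, Irf8 -0.031 to 0.24, Krt18 -1.55 to 0.25, Krt8 -0.67 to 0.073, Lag3 -0.087 to 0.37, Nos2 -0.21 to 0.40, Pdcd1 -0.39 to 0.088, Pou2f2 -0.15 to 0.26 and Stat3 -0.017 to 0.029. The other values of single genes and the medians of the gene lists were pooled over the alternatives. Of these, 4654 stayed the same, 50 gene values passed the threshold and 13 list medians moved. A gene stayed the same if it kept its direction and side of the threshold, and a list if its median shifted by no more than the spread within groups. No gene was called in the main fit, so any gene that kept its direction and stayed uncalled counted as the same. The spread within groups was wide for some lists. By this rule the MHC class II median counted as the same at -0.18 and, without Control replicate 1, 0.23. The adipocyte median did so at -1.86 and, without ASC replicate 2, -0.70. The count of values that stayed the same therefore does not measure how stable they were. At 39157647 counts or more per tumor, no fold was given for leading genes with at most 12 counts in every tumor of a group.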
